A study of Mus musculus with 16 samples.

Results

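The expression of 8 genes that mark resident macrophages, *Lyve1*, *Cd163*, *Folr2*, *Mrc1*, *Timd4*, *Cd209f*, *Stab1* and *Vsig4*, was described in the epididymal adipose tissue of mouse pups. They were taken by symbol from 19505 genes measured on Clariom S mouse arrays, each as the transcript cluster with the highest mean, and each had 1 cluster. There were 16 arrays, 4 in each of 4 groups and 1 per male C57BL/6 pup (substrain C57Bl/6 NCrSlc in the methods). The dams of UN-RG pups ate 60% of the energy that control dams took in pregnancy, and these pups were nursed in litters of 4 (UN, undernourishment *in utero*, and RG, rapid infantile growth). The dams of NN (normal nutrition) pups ate regular chow freely, and their pups were nursed in litters of 8. All pups, the controls included, ate a diet rich in fat (60% lipid) from 9 wks of age. From 11 wks until the tissue was sampled at 16.5 wks they were given vehicle (NN-Veh and UN-RG-Veh) or tauroursodeoxycholic acid, a bile acid used against endoplasmic reticulum stress, by mouth at 0.5 g per kg per day (NN-TU and UN-RG-TU). The sources used here do not say which pups were littermates, and p-values treat the pups as separate.

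Adipose tissue holds macrophages that settle along vessels and between fat cells and that take up debris, iron carriers and lipids through scavenger and lectin receptors. Those with *Lyve1*, *Cd163*, *Folr2*, *Mrc1* and *Timd4* are known as resident cells, and in obesity macrophages recruited from blood monocytes gather beside them. *Lyve1* encodes a hyaluronan receptor that lymphatic endothelium also carries. RNA of whole tissue was measured, so that fewer cells of a type and less RNA per cell cannot be told apart.

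Whether the 8 genes were detected was checked by intensity, which does not show the cells that express them. Values are log2 intensities, on which a difference of 1 is a doubling. The cluster of a gene was set beside 220 negative-control probe sets, whose 95th percentile was 9.64 to 10.5 by array. *Lyve1*, *Cd163*, *Folr2*, *Mrc1* and *Cd209f* lay above that percentile in all 16 arrays. *Timd4*, *Stab1* and *Vsig4* lay above it in 0 of 16, with 61.8%, 80.5% and 58.6% of the negative controls below their mean levels, so that the arrays give little signal for them. The fat cell gene *Adipoq* was at 18.04 to 18.39 in every array, and the pan-macrophage gene *Adgre1* at 10.37 to 12.16. Transcripts of motile cilia stood out in 4 arrays, 1 in each group (arrays 02, 08, 12 and 14), and results of the members are given without these where the value moves.

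*Lyve1* was lowest in UN-RG-Veh, and TU came with a higher level in UN-RG pups. Its level was 12.68, 12.94, 12.73 and 12.73 in the 4 NN-Veh arrays and 11.23, 11.12, 11.57 and 11.21 in the UN-RG-Veh arrays. It was 12.34, 12.42, 12.17 and 12.63 in the UN-RG-TU arrays and 12.15, 11.73, 12.75 and 12.48 in the NN-TU arrays. Every UN-RG-Veh array thus lay below all 12 others, and NN-TU spread the most, with its array 06 near UN-RG-Veh. In descending order the group means were 12.77 ± 0.11 in NN-Veh, 12.39 ± 0.19 in UN-RG-TU, 12.28 ± 0.44 in NN-TU and 11.28 ± 0.20 in UN-RG-Veh (SD, n = 4). The UN-RG-TU and NN-TU means, neighbours in this order, differed by 0.11 (SE 0.18, 95% CI −0.27 to 0.50), within the spread of the arrays.

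**Figure D1:**
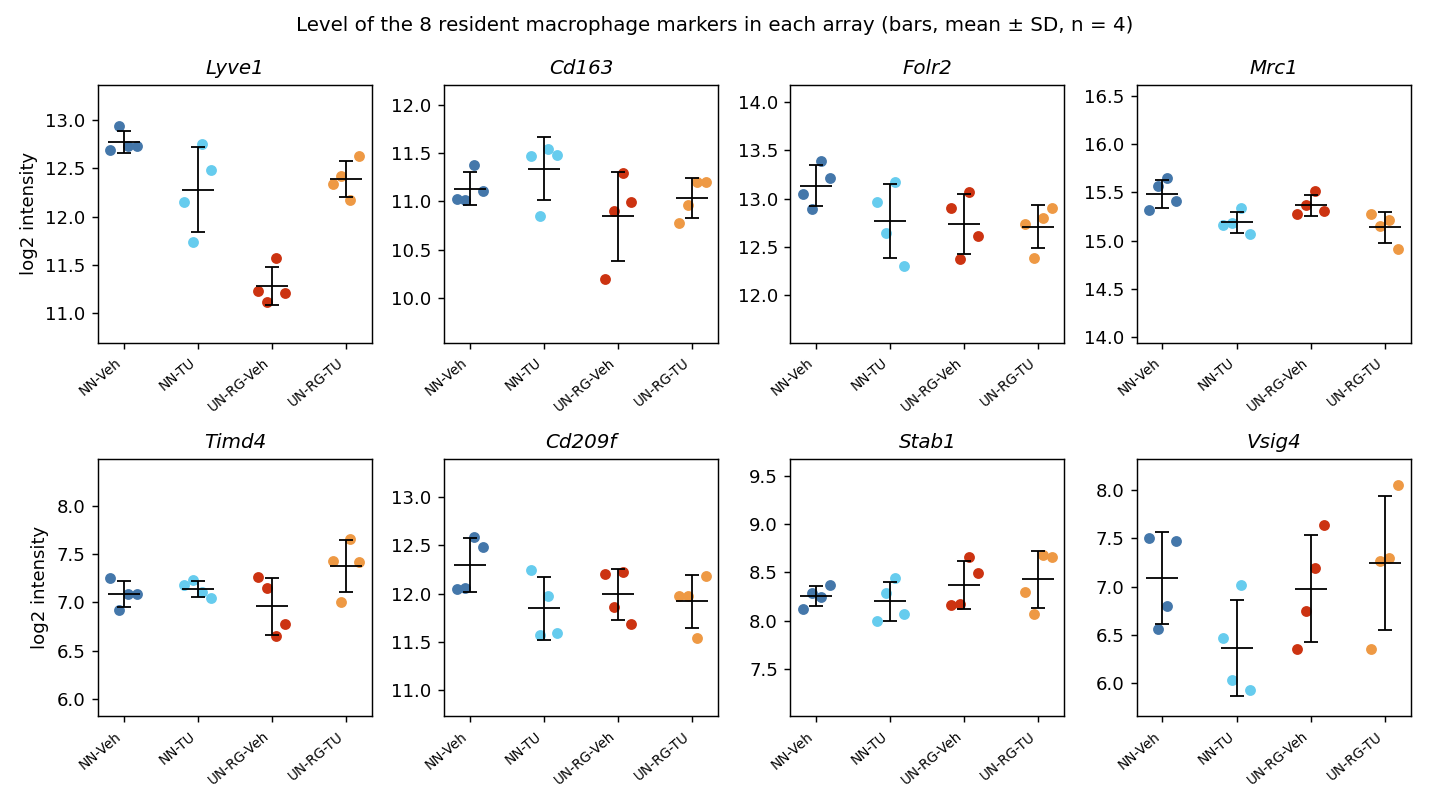
The log2 intensity of each of the 8 genes is plotted by group, with 1 point per array and bars for the mean ± SD (n = 4 arrays per group). All panels span the same range of log2 units around different levels. The 4 *Lyve1* points of UN-RG-Veh, at 11.12 to 11.57, sit below all other *Lyve1* points, and *Mrc1* in UN-RG-TU stays just below UN-RG-Veh, while for the other 6 genes these groups overlap.

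The difference in *Lyve1* between UN-RG-Veh and NN-Veh was −1.49 (SE 0.18, 95% CI −1.87 to −1.10), a level 2.81-fold lower. It had the smallest p of the 22206 clusters, with an adjusted p of 0.00691 from limma, and 0.00901% of clusters passed an adjusted p of 0.05. The adjusted p was above that threshold at 0.185 without the 4 arrays with cilia transcripts, at 0.0601 with the pan-macrophage mean as a covariate and at 0.274 with the unmoderated test that the methods name, while the difference stayed at −1.58 to −1.41 under all 19 alternatives. For the arrays the methods give a cut-off of 1.3-fold and name p-values without a limit, and in general they take p below 0.05 as significant. An unadjusted p below 0.05 together with a change of 1.3-fold or more is used here as the thresholds of the methods. The words "rose", "fell" and "passed" refer to these thresholds. By them *Lyve1* fell in UN-RG-Veh, as did 1.99% of all clusters, and 4.45% of clusters passed in either direction. Of all clusters 1.92% were, like *Lyve1*, lower in UN-RG-Veh without overlap. Adjusted p-values are from limma over all clusters, and in the comparisons below no other gene of the marker lists had one under 0.05.

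None of the other 7 members passed in this comparison. *Folr2*, a receptor for folate, came nearest. Its level was 13.05, 12.89, 13.39 and 13.22 in NN-Veh and 12.90, 12.38, 13.07 and 12.61 in UN-RG-Veh, with a difference of −0.40 (SE 0.20, 95% CI −0.81 to 0.02, adjusted p = 0.813). These 2 groups overlap, and *Folr2* passed both thresholds under 7 of 19 alternatives. *Cd163*, a scavenger receptor for haemoglobin, was at 11.02 to 11.38 in NN-Veh and 10.20 to 11.29 in UN-RG-Veh, and its difference of −0.29 (SE 0.21) was within that spread. *Cd209f*, a C-type lectin of the mouse DC-SIGN family, differed by −0.30 (SE 0.19). *Mrc1*, the mannose receptor and the brightest of the members at 14.91 to 15.65 over all arrays, differed by −0.12 (SE 0.12). *Timd4*, a phosphatidylserine receptor for dying cells, differed by −0.13 (SE 0.16), *Vsig4*, a complement receptor, by −0.11 (SE 0.35), and *Stab1*, the scavenger receptor stabilin-1, by 0.11 (SE 0.16). The median over the 8 members was −0.21, beside 0.01 over all clusters.

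In the comparison of UN-RG-TU with UN-RG-Veh, which shares the UN-RG-Veh arrays with the first, *Lyve1* rose by 1.11 (SE 0.18, 95% CI 0.72 to 1.50), a 2.16-fold higher level. All 4 UN-RG-TU arrays lay above all UN-RG-Veh arrays, as was so for 1.84% of all clusters. No cluster had an adjusted p under 0.05 in limma (0 of 22206), and 1787 had an unadjusted p under it. The adjusted p was 0.0723 with rank 2 of all clusters, and it ranged from 0.0361 to 0.682 over the 19 alternatives, while the difference ranged from 1.03 to 1.21. *Timd4* also rose, by 0.42 (SE 0.16, adjusted p = 0.473), from 7.27, 7.15, 6.65 and 6.77 to 7.43, 7.0, 7.65 and 7.42, with groups that overlap and levels among those of the negative controls. *Timd4* passed under 12 of 19 alternatives and not without UN-RG-Veh 11, where the difference was 0.31, without UN-RG-Veh 12 (0.35) or without UN-RG-TU 15 (0.32). These 2 of 8 members rose where 2.73% of all clusters rose and 5.91% passed in either direction. *Mrc1* was at 15.28, 15.15, 15.22 and 14.91 in UN-RG-TU and at 15.28, 15.37, 15.51 and 15.30 in UN-RG-Veh. These groups did not overlap, by less than the printed digits, as was so for 2.05% of all clusters with UN-RG-TU lower, and the difference of −0.23 (SE 0.12, adjusted p = 0.663) passed neither threshold. The differences of *Cd163* (0.19, SE 0.21), *Folr2* (−0.03, SE 0.20), *Cd209f* (−0.08, SE 0.19), *Stab1* (0.06, SE 0.16) and *Vsig4* (0.26, SE 0.35) were within the spread of the arrays.

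**Figure D2:**
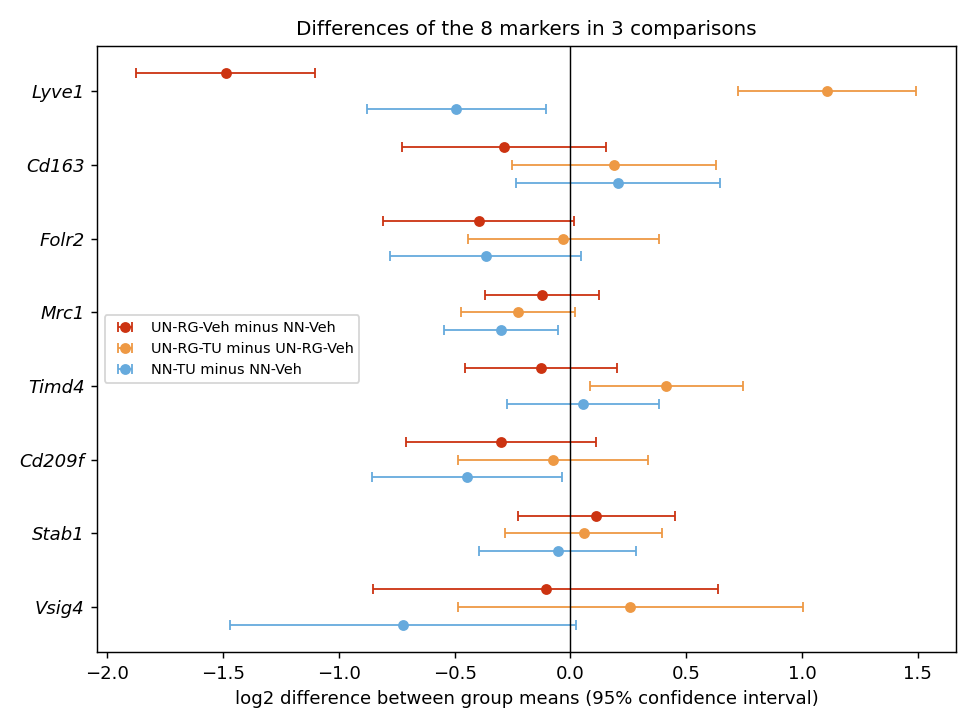
Points are log2 differences between group means of each gene from limma, with 95% confidence intervals, for UN-RG-Veh minus NN-Veh, UN-RG-TU minus UN-RG-Veh and NN-TU minus NN-Veh (4 arrays per group). *Lyve1* lies at −1.49, 1.11 and −0.49, and the first 2 of its intervals are farther from 0 than any interval of the other 7 genes.

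TU was also compared in NN pups, where NN-Veh arrays are shared with the first comparison. *Lyve1* fell by 0.49 (SE 0.18, adjusted p = 0.858) and *Cd209f* fell by 0.45 (SE 0.19, adjusted p = 0.961), with overlapping groups in both and against 1.93% of all clusters that fell and 3.29% that passed in either direction. Without NN-TU 06 the difference in *Lyve1* was −0.31 and did not pass. That of *Cd209f* did not pass without NN-Veh 03 (−0.35), NN-Veh 04 (−0.38), NN-TU 06 (−0.36) or NN-TU 08 (−0.36). *Mrc1* had an unadjusted p of 0.0208 in limma but differed by only −0.30 (SE 0.12), under the threshold of the fold change. *Vsig4* was at 7.51, 6.57, 6.80 and 7.47 in NN-Veh and at 6.47, 6.04, 7.02 and 5.93 in NN-TU, a difference of −0.72 (SE 0.35) that did not pass. Between UN-RG-TU and NN-TU, 1 of 8 members rose, as did 1.16% of all clusters. It was *Vsig4*, higher by 0.88 (SE 0.35, adjusted p = 0.9999) with levels from 6.36 to 8.05 in UN-RG-TU, and it did not pass without NN-TU 06 (0.77), NN-TU 08 (0.73) or UN-RG-TU 16 (0.61).

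The TU effects in UN-RG and NN pups were compared as an interaction, the first minus the second. For *Lyve1* it was 1.60 (SE 0.26, 95% CI 1.06 to 2.15), with the smallest p of all clusters but an adjusted p of 0.261, and it was 1.42 to 1.76 over 25 alternatives. In these, the adjusted p ranged from 0.0416, without NN-TU 07, to 0.975. *Lyve1* was the 1 member past the thresholds of the methods in the interaction, and 1.36% of all clusters passed with a higher value. *Vsig4* (0.98, SE 0.50), *Cd209f* (0.37, SE 0.27), *Timd4* (0.36, SE 0.22) and *Folr2* (0.34, SE 0.28) did not pass.

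Among genes that macrophages in general express, those that passed moved the other way from *Lyve1* between UN-RG-Veh and NN-Veh and with TU in UN-RG pups, but the same way, down, with TU in NN pups. Of 15 measured pan-macrophage genes 5 rose and 0 fell in UN-RG-Veh against NN-Veh, with a median of 0.24. They were *Ms4a7* (1.05, SE 0.27), the Fc receptor gene *Fcgr1* (0.82, SE 0.25), *Tyrobp* (0.73, SE 0.29), *Cd14* (0.56, SE 0.22) and *Aif1* (0.46, SE 0.16). With TU in UN-RG pups 7 fell and 0 rose, with a median of −0.52, among them the complement genes *C1qb* (−0.83, SE 0.17), *C1qc* (−0.76, SE 0.15) and *C1qa* (−0.52, SE 0.14). In NN pups TU also came with a fall of 4, *C1qa*, *C1qb*, *C1qc* and *Fcgr1*. The mean level of the 15 genes was 11.37 ± 0.23 in NN-Veh, 11.74 ± 0.06 in UN-RG-Veh, 11.28 ± 0.23 in UN-RG-TU and 11.12 ± 0.35 in NN-TU (SD, n = 4). Several genes named from this and the other lists, like *Timd4*, *Stab1* and *Vsig4*, lay above the 95th percentile of the negative controls in 0 of 16 arrays, so that their differences rest on dim signal. These are *Cd14*, *Ccl24*, *Siglec1*, *Itgad*, *Serpinb2*, *F5*, *Alox15*, *Gata6*, *Irf8*, *Prox1*, *Mmrn1*, *Lrrn4*, *Msln*, *Krt7*, *Clec9a*, *Ldhc*, *Tnp1*, *Hpx*, *Timd2*, *Has1*, *Has2*, *Has3*, *Cd209b*, *Cd209c* and *Cd209e*. *Aif1* and *Prm1* lay above it in 1 array, *Fcgr1* and *Cd209d* in 2 and *Upk1b* in 4, so that their signal was also dim in most arrays.

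Each member was therefore also set against the mean of the 15 pan-macrophage genes in the same array, and the groups were compared with an exact two-sided permutation test, for which 4 arrays against 4 can reach no less than p = 0.0286. In 32 such tests p-values were not adjusted. *Lyve1* minus this mean was 1.20, 1.71, 1.09 and 1.59 in NN-Veh, −0.52, −0.54, −0.22 and −0.55 in UN-RG-Veh and 1.09, 1.15, 1.15 and 1.04 in UN-RG-TU. All 4 UN-RG-Veh arrays lay below the other 12 arrays. The difference was −1.85 between UN-RG-Veh and NN-Veh and 1.56 between UN-RG-TU and UN-RG-Veh, both without overlap (exact permutation p = 0.0286). Relative to the list, 4 further members did not overlap between UN-RG-Veh and NN-Veh, *Folr2* (−0.76), *Cd209f* (−0.66), *Cd163* (−0.65) and *Mrc1* (−0.48), each lower in UN-RG-Veh (exact permutation p = 0.0286). Against the same mean, which was itself higher in UN-RG-Veh, 17.1% of all clusters were lower in UN-RG-Veh without overlap. With TU in UN-RG pups *Timd4* (0.87), *Cd163* (0.64) and *Cd209f* (0.38) were higher without overlap (exact permutation p = 0.0286), as were 23.2% of all clusters. With 10 adipocyte genes in place of the macrophage list, *Lyve1* differed by −1.35 and 0.84 in these comparisons, both still without overlap, and the calls above of *Folr2*, *Cd209f*, *Cd163*, *Mrc1* and *Timd4* were lost. Against the adipocyte genes *Mrc1* was lower with TU in UN-RG pups without overlap (−0.49, exact permutation p = 0.0286). The adipocyte mean was itself higher with TU in these pups (UN-RG-TU 16.47, UN-RG-Veh 16.20). How many of all clusters did not overlap against the adipocyte mean was not counted. Whether these *Lyve1* and *Mrc1* calls stand out from other clusters was therefore not tested.

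**Figure D3:**
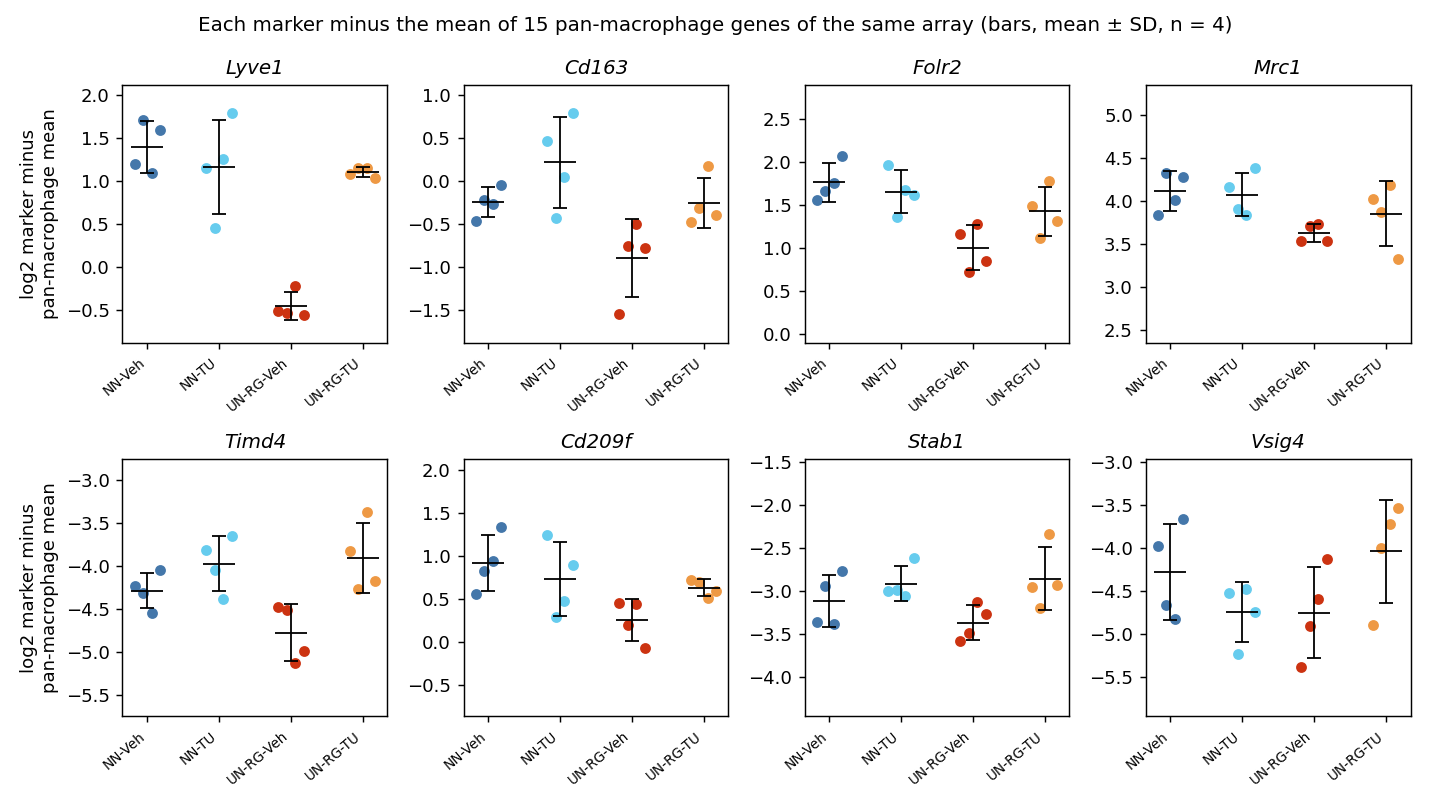
For each gene the log2 intensity minus the mean of 15 pan-macrophage genes of the same array is plotted by group, with 1 point per array and bars for the mean ± SD (n = 4). All panels span the same range. The UN-RG-Veh points of *Lyve1*, at −0.55 to −0.22, stand below the 12 other arrays, at 0.45 to 1.79.

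Of 24 other resident macrophage genes measured, 1 rose and 4 fell in UN-RG-Veh against NN-Veh, with a median of 0.03. *Retnla*, a secreted protein of alternatively activated macrophages that fat tissue also makes, fell by 0.78 (SE 0.23), the eosinophil chemokine *Ccl24* fell by 0.75 (SE 0.30), the lectins *Cd209d* and *Clec10a* fell by 0.92 (SE 0.37) and 0.38 (SE 0.17), and the lipid transfer protein *Pltp* rose by 0.63 (SE 0.29). The *Retnla* level in UN-RG-Veh was 17.09, 16.52, 17.03 and 15.67, lowest in array 12, which had cilia transcripts. Its differences without that array were not tested. With TU in UN-RG pups *Retnla* rose by 0.65 (SE 0.23), with no overlap, and *Hmox1*, the haem-degrading enzyme, and *Siglec1*, a sialic acid receptor, fell by 0.94 (SE 0.25) and 0.51 (SE 0.20). Of 14 genes of recruited and lipid-associated macrophages, 1 rose with UN-RG, the integrin subunit *Itgad* (1.58, SE 0.34), and with TU in UN-RG pups *Itgad* fell by 1.80 (SE 0.34) and the chemokine receptor *Ccr2* fell by 0.76 (SE 0.28). Of 9 genes of large peritoneal macrophages, *Serpinb2* (−0.82, SE 0.31), *F5* (−0.74, SE 0.28) and *Alox15* (−0.68, SE 0.30) fell with UN-RG, and *Alox15* (1.06, SE 0.30) and *F5* (0.75, SE 0.28) rose with TU, while *Gata6*, which defines these cells, was at 6.11 to 7.31, among the negative controls. Of 11 growth factors and transcription factors of macrophages, *Csf1*, their main growth factor, fell by 0.47 (SE 0.18) with UN-RG, and *Irf8* fell by 0.60 (SE 0.20) with TU.

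Lymphatic endothelium, which also expresses *Lyve1*, was followed through 8 genes. None of them passed in UN-RG-Veh against NN-Veh, and with TU in UN-RG pups 1 rose, *Pdpn* (0.43, SE 0.15), which mesothelium also expresses. The defining transcription factor *Prox1* was at 5.44 to 6.87 in all arrays, among the negative controls, and differed by −0.11 (SE 0.35) and 0.18 (SE 0.35). The chemokine *Ccl21a* ranged from 7.38 to 14.57 and *Mmrn1* from 4.27 to 9.71, and both were highest in the 4 arrays with cilia transcripts. In those arrays *Ccl21a* was at 14.39 with *Lyve1* at 12.94, the highest of all 16, in NN-Veh 02, at 13.58 with *Lyve1* at 12.48 in NN-TU 08, at 13.71 with *Lyve1* at 11.21 in UN-RG-Veh 12 and at 14.57 with *Lyve1* at 12.42 in UN-RG-TU 14. The part of lymphatic RNA in the *Lyve1* result was not tested beyond these values and the fit without the 4 arrays, where the *Lyve1* differences were −1.41 with UN-RG and 1.08 with TU in UN-RG pups.

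Among mesothelium genes, those that passed moved the same way as *Lyve1* in both comparisons. Of 12 measured, 3 fell with UN-RG, *Gpm6a* (−1.07, SE 0.47), *Lrrn4* (−0.94, SE 0.38) and *Msln* (−0.84, SE 0.38), and 8 rose with TU in UN-RG pups, among them *Krt7* (1.35, SE 0.27) and *Upk1b* (1.77, SE 0.46). The list mean was 7.58 to 8.61 in NN-Veh, 6.46 to 7.93 in UN-RG-Veh, 7.89 to 9.19 in UN-RG-TU and 7.51 to 8.65 in NN-TU. The list holds *Krt8* and *Krt18*, which were highest in the 4 arrays with cilia transcripts (*Krt8* at 11.26 in NN-Veh 02 and 10.66 in NN-TU 08). In NN-Veh and NN-TU those arrays had the highest list mean, so that the list mean may not follow mesothelium alone. With that mean as a covariate in limma, the *Lyve1* differences were −1.46 (adjusted p = 0.0335) and 1.04 (adjusted p = 0.262). Of 10 adipocyte genes, *Retn* fell with UN-RG (−0.56, SE 0.17), and *Slc2a4* (0.90, SE 0.25) and *Retn* (0.66, SE 0.17) rose with TU. None of 8 blood endothelium genes passed with UN-RG, and *Pecam1* (−0.42, SE 0.14) fell with TU. Of 8 dendritic cell genes *Cd209a* (−0.74, SE 0.31) fell with UN-RG and *Clec9a* (−0.40, SE 0.18) with TU. Of 10 testis and germ cell genes, which could mark tissue next to this fat pad, *Prm1* (−1.84, SE 0.86), *Ldhc* (−1.80, SE 0.69) and *Tnp1* (−0.50, SE 0.24) fell with UN-RG and none passed with TU. These 3 were highest in NN-Veh 03, and without that array, a setting chosen after seeing the data, the differences of their means were −0.72, −1.19 and −0.23. None of 7 motile cilia genes passed in either comparison. The part of these cell types in the *Lyve1* result was not tested beyond the fits above.

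**Figure D4:**
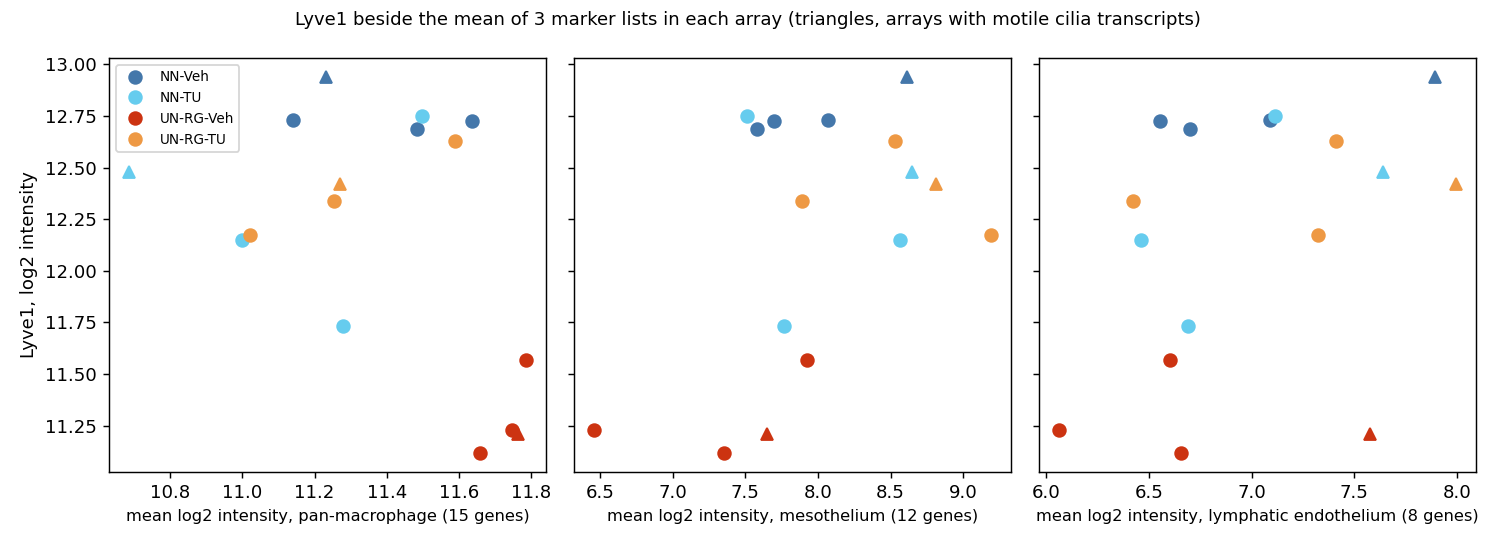
*Lyve1* log2 intensity is plotted against the mean log2 intensity of the pan-macrophage, mesothelium and lymphatic endothelium lists, with 1 point per array, and triangles for the 4 arrays with motile cilia transcripts. The UN-RG-Veh arrays lie low for *Lyve1*, at the top of the pan-macrophage range (11.66 to 11.78), from the bottom to the middle of the mesothelium range (6.46 to 7.93, with a median of 7.91 over all arrays) and across much of the lymphatic range (6.06 to 7.58).

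Ligands, partners and family members of the 8 genes were followed as a list of 28 measured. In UN-RG-Veh against NN-Veh 4 rose and 4 fell, and with TU in UN-RG pups 1 rose and 6 fell. Haptoglobin, *Hp*, which binds haemoglobin, rose by 0.60 (SE 0.25) with UN-RG and fell by 0.86 (SE 0.25) with TU, while *Cd163* passed in neither comparison. *Hpx*, a plasma carrier of free haem that is taken up apart from *Cd163*, rose by 1.54 (SE 0.33) with UN-RG and fell by 1.39 (SE 0.33) with TU. On the hyaluronan route of *Lyve1*, the synthases *Has1*, *Has2* and *Has3* differed by −0.01 (SE 0.20), −0.28 (SE 0.23) and 0.20 (SE 0.29) with UN-RG, and *Has1* rose by 0.47 (SE 0.20) with TU. *Mfge8*, which bridges phosphatidylserine on dying cells to phagocytes, rose by 0.95 (SE 0.26) with UN-RG and fell by 0.84 (SE 0.26) with TU, and *Timd2*, of the family of *Timd4*, rose by 0.66 (SE 0.23) with UN-RG.

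*Cd209f* belongs to a cluster of lectin genes on mouse chromosome 8, of which 7 were measured. In UN-RG-Veh against NN-Veh *Cd209d* (−0.92, SE 0.37), *Cd209e* (−0.80, SE 0.28), *Cd209a* (−0.74, SE 0.31) and *Cd209c* (−0.54, SE 0.22) fell, and *Cd209b* (−0.40, SE 0.25), *Cd209g* (−0.38, SE 0.21) and *Cd209f* (−0.30, SE 0.19) did not pass. In NN-TU against NN-Veh, which shares the NN-Veh arrays, *Cd209e* (−0.84, SE 0.28), *Cd209a* (−0.72, SE 0.31), *Cd209c* (−0.58, SE 0.22), *Cd209g* (−0.50, SE 0.21) and *Cd209f* fell. None of the 7 passed with TU in UN-RG pups, where the differences lay between −0.10 and 0.16. Of the 7, *Cd209f* and *Cd209g* lay above the 95th percentile of the negative controls in all 16 arrays, *Cd209a* in 8, *Cd209d* in 2 and *Cd209b*, *Cd209c* and *Cd209e* in 0.

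**Figure D5:**
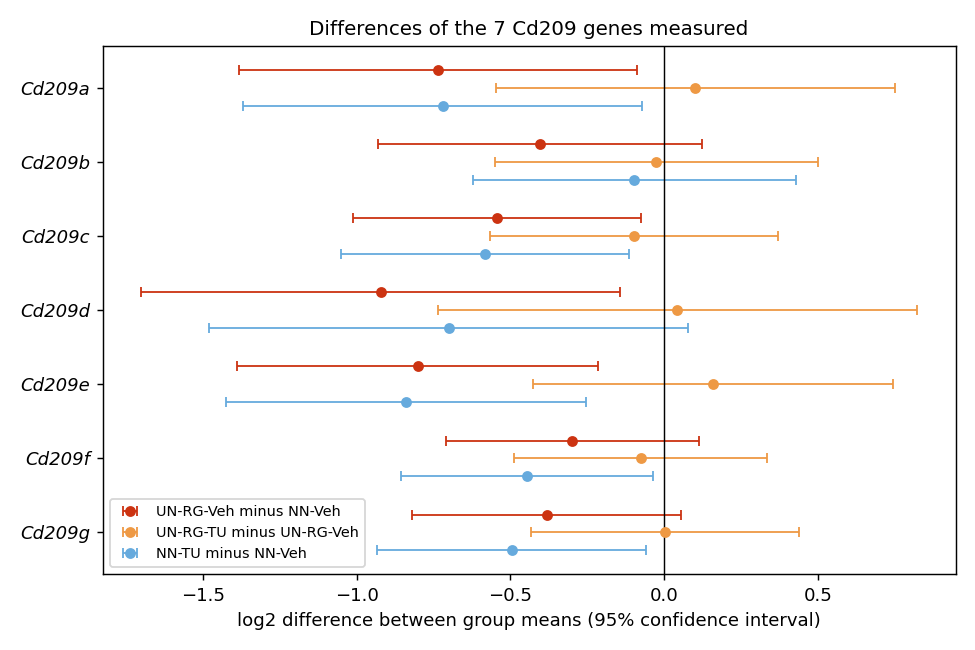
Points are log2 differences between group means of the 7 *Cd209* genes from limma, with 95% confidence intervals (4 arrays per group), for 3 comparisons. All 7 lie below 0 for UN-RG-Veh minus NN-Veh and for NN-TU minus NN-Veh, and between −0.10 and 0.16 for UN-RG-TU minus UN-RG-Veh.

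*Cd209g* was the gene most like *Cd209f* of all 1-symbol clusters above the negative-control median, with a Pearson correlation of 0.97 over the 16 arrays. The correlation of deviations from the group means was also 0.97, and the other 5 genes of the cluster correlated with *Cd209f* at 0.62 to 0.77. The starts of both genes lie 28.97 kb apart and face away from each other. To show how alike the promoters of this pair are, their 250 bases before the start were read from RefSeq (GRCm38.p6) and aligned. They were identical at 211 of 270 aligned positions (78.1%), against 44.0% to 52.3% for the other 5 genes. The 30 bases around their single TGANTCA match, the site of AP-1 factors (either strand, in capitals), have the same letters in both, at chr8:4105830-4105859 on the minus strand for *Cd209f* and chr8:4134627-4134656 on the plus strand for *Cd209g*.
Cd209f: ctttttttccccTGAGTCAgagaagaatcg
Cd209g: ctttttttccccTGAGTCAgagaagaatcg
The 176 bases of *Cd209f* before the annotated gene, at chr8:4105839-4106014 on the minus strand, end within this window.
Cd209f upstream: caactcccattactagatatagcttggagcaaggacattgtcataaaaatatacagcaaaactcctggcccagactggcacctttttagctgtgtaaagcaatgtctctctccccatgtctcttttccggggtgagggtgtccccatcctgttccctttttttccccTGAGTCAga
The transcripts of such a pair can share probe sequence, and whether the clusters of *Cd209f* and *Cd209g* read only their own gene was not tested here, so that both values are uncertain as separate measurements.

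Promoter entries were matched for 7 of the 8 members, all but *Lyve1*, and 3 short motifs were searched on both strands of the 250 bases before each start. GAGGAA, the core site of the macrophage factor PU.1, was found in *Mrc1* (3 matches), *Vsig4* (2 matches) and *Stab1* (1 match), and 23.3% of 32851 mouse promoters of the same length hold it. TGCTGA, the half-site of MAF factors, was found in *Timd4* (2 matches), *Stab1* and both annotated starts of *Folr2*, against 16.1% of promoters. TGANTCA was found in *Cd209f* and at 1 start of *Folr2*, against 6.75%. The half-site of MAF factors and TGANTCA share letters and can overlap. A match describes letters and not binding.

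Most pairs of members correlated weakly. Over the 28 pairs the Pearson correlation across the 16 arrays, given as a description because the arrays share groups, was −0.46 to 0.74, and 3 pairs were above 0.5, *Cd209f* with *Folr2* (0.74), *Stab1* with *Vsig4* (0.56) and *Folr2* with *Mrc1* (0.52). *Lyve1* correlated with the others at −0.04 to 0.50, highest with *Cd163*. The 8 genes most like *Lyve1* were *Erc1* (0.87), *Fkbp14* (0.86), *Tfrc* (0.83), *Far1* (0.83), *Abi3bp* (0.82), *Vcan* (0.80), *Cd47* (0.79) and *Elovl6* (0.78). Among these are the transferrin receptor (*Tfrc*), the hyaluronan-binding proteoglycan versican (*Vcan*), the signal against phagocytosis *Cd47* and the fatty acid elongase *Elovl6*. Each had its lowest group mean in UN-RG-Veh, which a choice by likeness to *Lyve1*, itself lowest there, favours. For deviations from the group means the correlation was 0.70 for *Far1*, 0.69 for *Fkbp14* and 0.52 for *Vcan*. It was 0.35 for *Cd47*, 0.315 for *Erc1* and 0.30 for *Tfrc*, but 0.02 for *Abi3bp* and 0.05 for *Elovl6*. The likeness of the last pair thus lies between the groups and not within them. For the other members the closest genes were *Antxr1* for *Cd163* (0.80), *Cd80* for *Folr2* (0.87), *Thy1* for *Mrc1* (0.80), *Tomm34* for *Timd4* (0.88), *Mblac1* for *Stab1* (0.74) and *Ppp2r5c* for *Vsig4* (0.79).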

How the data were processed

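RNA of epididymal adipose tissue was labelled by the authors with the WT PLUS kit, hybridised to Clariom S mouse arrays and processed with Expression Console and Transcriptome Analysis Console, whose versions and normalization method are not given in the sources used here. The intensities, as deposited, were normalized by the authors and are linear, with 1 value per transcript cluster and array; log2 was taken here. Of 22520 lines, 314 control probe sets were left out, 220 of them negative controls, and 22206 clusters were tested with no filter on dim ones. For NN-TU arrays the titles were used, since 1 label reads NN-RG-TU. The array log2 median was 6.997 to 7.16, arrays of a group correlated at 0.977 to 0.995, no 2 arrays were identical, and the labels give no batch. The number of arrays limits the precision.

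Means of the 4 groups were fitted over all 16 arrays with limma 3.58.1 in R 4.3.3 (eBayes, Benjamini-Hochberg adjustment over all clusters). The fit was tested on simulated data. Permutation tests used scipy 1.17.1, alignments Biopython, figures matplotlib 3.10.9. Members and gene lists were chosen with earlier results of these data known. From each other list, the up to 5 genes with the smallest p among those past the thresholds of the methods in UN-RG-Veh against NN-Veh or UN-RG-TU against UN-RG-Veh were named, and for likeness 8 genes for *Lyve1* and the 3 closest for each other member, of which the closest is printed. Genes beyond this rule complete a count or a family and were chosen after their values were seen. Alternatives were other scaling, quantile normalization, a filter on dim clusters, a pseudocount of 16, other fits, covariates, and each array left out.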

Additional observations from a re-analysis of the deposited data

Results flagged for a closer look

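In NN-TU the *Cd163* level of array 06, at 10.85, stood apart from the other 3 arrays, at 11.47 to 11.54, with a gap of 0.896 of the range of the group. Of 32 groups of 4 arrays tested in this way for the 8 members, this was the only 1, and chance flags about 1 in 20. The *Lyve1* level was also lowest in that array, at 11.73.

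The TU effect on *Lyve1* differed between UN-RG and NN pups, by 1.60 on the log2 scale (SE 0.26, adjusted p = 0.261 for the interaction in limma), with a rise of 1.11 in UN-RG pups and a value of −0.49 in NN pups.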

How the results depend on the processing

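Over all results 1173 alternative values were computed, of which 1013 were scored as the same, 51 moved, 58 changed sign, 23 newly passed and 28 no longer passed. A member difference was the same if it kept its direction and side of the threshold. A count was the same if it stayed within a set ratio. A level against a list, with an array left out, was the same if it changed by less than the SD within groups. The difference of *Lyve1* kept its direction and passed the thresholds of the methods in all alternatives between UN-RG-Veh and NN-Veh, between UN-RG-TU and UN-RG-Veh and for the interaction. Where a cause is not given by the setting itself (fewer arrays), the cause was not tested. No paired analysis was possible because the groups share no replicate numbers, and each member has 1 transcript cluster, which leaves no other to choose. The number of arrays and, for *Timd4*, *Stab1* and *Vsig4*, a signal among the negative controls limit the precision.

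For UN-RG-Veh minus NN-Veh, 2 clusters had an adjusted p under 0.05, against 4 with an intensity trend and robust prior, 1 with only the compared groups in the fit, and 0 without the arrays with cilia transcripts, with the pan-macrophage covariate or with the unmoderated t-test, and 2 to 9 with single arrays left out (9 without UN-RG-Veh 09). The 1 member past the thresholds became 2, *Lyve1* and *Folr2*, with the trend, without the cilia arrays, with either covariate and with only the compared groups, and 1 to 2 with single arrays left out. *Vsig4* was at 0.0033 with the mesothelium covariate and at −0.32 to 0.10 with arrays left out.

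For UN-RG-TU minus UN-RG-Veh, 0 clusters became 1 with the filter on dim clusters or the pseudocount, 2 with the mesothelium covariate, 37 with the trend and 0 to 46 with single arrays left out (46 without UN-RG-Veh 09, 12 without UN-RG-TU 14). The 2 members became 1 with the pseudocount, the pan-macrophage covariate, only the compared groups or the t-test, and 1 to 2 with arrays left out. *Folr2* changed sign to 0.034 without the cilia arrays, 0.27 with the pan-macrophage and 0.17 with the mesothelium covariate, and *Cd209f* to 0.12 and 0.081 with these covariates. *Cd163* was at −0.22 and *Stab1* at −0.041 with the mesothelium covariate. With arrays left out, *Folr2* was at −0.15 to 0.079, *Cd209f* at −0.18 to 0.050, *Cd163* at −0.025 to 0.34, *Stab1* at −0.028 to 0.18 and *Vsig4* at −0.0095 to 0.55.

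For NN-TU minus NN-Veh, the 2 members became 1 with median centring, without the cilia arrays or with the pan-macrophage covariate, 0 with the t-test and 0 to 4 with arrays left out. *Stab1* was at 0.012 with the pan-macrophage covariate and at −0.14 to 0.011 with arrays left out, and *Timd4* at −0.0013 to 0.11. For UN-RG-TU minus NN-TU, the 1 member became 0 without the cilia arrays, with the pan-macrophage covariate or with the t-test, and 0 to 1 with arrays left out. With the mesothelium covariate and without NN-TU 06 the 1 member was *Cd163*, which fell by 0.46 in both, in place of *Vsig4* (0.79 and 0.77). *Cd209f* was at −0.035 without the cilia arrays and −0.0024 with the pan-macrophage covariate, and *Folr2* at 0.016 with the mesothelium covariate. With arrays left out, *Cd209f* was at −0.020 to 0.20, *Folr2* at −0.22 to 0.074, *Lyve1* at −0.070 to 0.27 and *Mrc1* at −0.10 to 0.026.

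For the interaction, the 1 member became 2 without the cilia arrays or with either covariate and 1 to 2 with arrays left out, and 0 clusters became 0 to 1 (*Lyve1*, without NN-TU 07). *Cd163* was at 0.14 and *Mrc1* at −0.020 without the cilia arrays, and *Cd163* at −0.23 to 0.13 with arrays left out. Against the adipocyte list in place of the pan-macrophage list, sign changed with TU in UN-RG pups for *Cd163* (−0.076), *Folr2* (−0.30), *Mrc1* (−0.49), *Cd209f* (−0.34), *Stab1* (−0.21) and *Vsig4* (−0.0058), and in UN-RG-Veh for *Mrc1* (0.020), *Timd4* (0.015), *Stab1* (0.25) and *Vsig4* (0.034).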
